A study of Mus musculus with 56 samples.

Results

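The genes followed here encode the GABA-B receptor and the GIRK potassium channels that it opens. They are Gabbr1 and Gabbr2, the 2 receptor subunits, and Kcnj3 (GIRK1), Kcnj6 (GIRK2) and Kcnj9 (GIRK3), 3 channel subunits. They were taken by name, as every probe set annotated to 1 of these 5 gene symbols and to no other. That gave 28 probe sets out of 79697 with a single gene symbol over 3 array types: 17 of 34958 on the 3' arrays (Mouse430_2), 5 of 21218 on earlier gene-level arrays (MoGene-1_1) and, on later gene-level arrays (MoGene-2_1), 6 of 23521. Gabbr2 had no single-symbol probe set on the 3' arrays, so it is followed on the gene-level arrays alone. A gene with several probe sets is represented by its lead probe set, the brightest over the control arrays of that array type. Values of its other probe sets are given in some comparisons only.

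The GABA-B receptor is the slow, G protein-coupled receptor for the inhibitory transmitter GABA. It works as an obligate pair: the Gabbr1 product binds GABA, and the Gabbr2 product carries the receptor to the cell surface and couples it to Gi and Go proteins. The G protein beta-gamma subunits set free by the receptor bind GIRK channels, tetramers that let potassium leave the neuron and so quiet it, and in the same cells they inhibit presynaptic calcium channels.

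The samples were cultures of cortical neurons from C57BL6 mouse embryos of day 13 to 15, grown for 7 days in vitro, and each array measured the total RNA of 1 culture sample. Drug exposure lasted 24 or 72 h, and the labels name the time of an array only where its title says 24 h. Of the 3' arrays, 3 had 300 nM topotecan and 3 its vehicle, and 3 had 3 µM ICRF-193 and 3 its own vehicle. Topotecan inhibits topoisomerase I, the enzyme (Top1) that relaxes DNA ahead of RNA polymerase, and ICRF-193 inhibits topoisomerase II, whose neuronal form is Top2b. A topotecan dose series was run on the earlier gene-level arrays: single arrays had 3, 30, 150, 500 and 1000 nM, while 300 nM had 2 and vehicle 3. The later arrays included 6 with 1 µM topotecan and 6 with vehicle. They also included 3 with 10 µM irinotecan, another topoisomerase I inhibitor, 1 with topotecan for 24 h and 1 with topotecan for 24 h followed by washout, which all share 2 vehicle arrays. The titles of these 24 h arrays give no topotecan dose. In the knockdown experiment, 3 arrays each had lentivirus with a control hairpin, a hairpin against Top1 or a hairpin against Top2b. Single arrays had 100 µM DRB, a blocker of transcription elongation (with 1 vehicle array), or 100 µM H2O2 or 10 µM paraquat, both oxidants (with 2 shared vehicle arrays). Some descriptions in the labels name another experiment than the title does, and groups follow the titles. Nothing in the labels says that replicates came from separate cultures, so p-values measure the spread between these arrays, and the number of arrays limits the precision.

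All 8 neuronal markers measured on the later arrays were above the dim limit (the 40th percentile of probe sets), as were 8 of 9 astrocyte markers, 4 of 4 markers of proliferating cells, 4 of 7 of the oligodendrocyte lineage and 3 of 7 of microglia. Among the latter, Cx3cr1, C1qa and Tmem119 were above the limit and Aif1, Csf1r, Itgam and P2ry12 below it. Transcripts typical of other cell types were thus measured beside those of neurons, and in bulk RNA fewer cells of a type and less RNA per cell cannot be told apart. All 11 member probe sets on the gene-level arrays passed the dim limit of their array type. On the 3' arrays 6 of 17 did: 3 of 4 for Gabbr1, 2 of 4 for Kcnj3, 1 of 4 for Kcnj9 and 0 of 5 for Kcnj6. Sets of arrays differed in mean intensity, between 138 and 144 for the irinotecan and washout arrays and knockdown replicates 2 and 3, between 178 and 183 for the 1 µM topotecan arrays and knockdown replicate 1, and between 202 and 211 for the DRB and oxidant arrays. Levels are therefore compared only with the controls of the same experiment.

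The members differ widely in genomic span. In the RefSeq annotation of GRCm38.p6 Gabbr2 covers 329 kb, Kcnj6 253 kb and Kcnj3 186 kb, whereas Gabbr1 covers 28.3 kb and Kcnj9 8.82 kb. The promoters of the 2 members that fell most under 1 µM topotecan (Gabbr2, Kcnj3) and of the 2 that were not called (Gabbr1, Kcnj9) are shown so that these starts can be compared. Each window runs from 250 bases before to 50 after the RefSeq transcription start, 5′ to 3′ on the strand of the gene, and capitals mark a GC box (GGGCGG) or a TATA box (TATAAA) on either strand. The windows are chr4:46991665-46991964 (minus strand) for Gabbr2, chr2:55435720-55436019 (plus strand) for Kcnj3, chr17:37045716-37046015 (plus strand) for Gabbr1 and chr1:172329273-172329572 (minus strand) for Kcnj9, all in GRCm38.p6. The Kcnj3 window lies inside the 186 kb span, which begins at base 55411798, so it is not the 5′ end of that span.
Gabbr2: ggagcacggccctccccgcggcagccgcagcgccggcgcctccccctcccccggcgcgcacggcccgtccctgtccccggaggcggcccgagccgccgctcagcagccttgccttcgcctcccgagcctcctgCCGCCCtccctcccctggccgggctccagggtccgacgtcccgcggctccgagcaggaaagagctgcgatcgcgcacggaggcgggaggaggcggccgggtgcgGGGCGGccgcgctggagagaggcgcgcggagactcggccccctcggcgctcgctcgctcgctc
Kcnj3: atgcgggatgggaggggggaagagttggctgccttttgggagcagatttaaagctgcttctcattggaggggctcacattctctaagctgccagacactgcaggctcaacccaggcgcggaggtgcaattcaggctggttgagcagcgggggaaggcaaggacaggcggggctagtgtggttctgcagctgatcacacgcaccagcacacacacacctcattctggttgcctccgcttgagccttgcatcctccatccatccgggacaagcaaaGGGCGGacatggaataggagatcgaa
Gabbr1: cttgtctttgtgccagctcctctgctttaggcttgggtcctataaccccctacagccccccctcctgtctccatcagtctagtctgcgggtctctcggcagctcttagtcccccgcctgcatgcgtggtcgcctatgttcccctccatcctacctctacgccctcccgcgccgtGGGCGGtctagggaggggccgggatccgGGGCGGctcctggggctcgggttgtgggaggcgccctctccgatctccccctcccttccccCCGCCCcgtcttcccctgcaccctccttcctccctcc
Kcnj9: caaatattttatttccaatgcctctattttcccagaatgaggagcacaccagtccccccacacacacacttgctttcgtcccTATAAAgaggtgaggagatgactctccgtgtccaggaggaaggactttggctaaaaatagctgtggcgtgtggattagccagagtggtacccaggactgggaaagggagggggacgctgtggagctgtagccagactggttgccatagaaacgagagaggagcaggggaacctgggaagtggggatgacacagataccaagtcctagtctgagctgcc
The Gabbr2 window was 80.3% G and C with 46 CpG pairs, against medians of 52.7% and 7 over 32851 RefSeq promoter windows of the same length. The Gabbr1 window was 67.3% G and C with 18 CpG pairs, the Kcnj3 window 57.7% with 10, and the Kcnj9 window 52.3% with 5. GC boxes were found 2 times in the Gabbr2 window, 3 times in that of Gabbr1 and 1 time in that of Kcnj3, and 35.7% of all windows held at least 1. Only the Kcnj9 window of these 4 held a TATA box, which 13.6% of all windows held. Neither a cyclic AMP response element (TGACGTCA, in 1.79% of windows) nor a site for the factor NRF1 (in 0.971%) was in any of the 4 windows. The GC box was thus in Gabbr2, Kcnj3 and Gabbr1 and lacking in Kcnj9, and no motif searched was shared by Gabbr2 and Kcnj3 and lacking in Gabbr1. Kcnj6 has 2 windows, not printed here, with 0 and 1 GC boxes.

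With 1 µM topotecan, 1 of the 2 receptor subunit transcripts fell and the other was not detectably different. Gabbr2 fell 2.90-fold, Kcnj3 2.06-fold and Kcnj6 1.51-fold, and Gabbr1 and Kcnj9 were not called (limma on log2 intensity, Benjamini-Hochberg over all 23521 probe sets, threshold 0.05). These 3 of 5 lead probe sets, all lower, compare with 12.2% of all 22180 lead probe sets called lower and 29.2% called in either direction.

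Gabbr2, on which surface delivery and G protein coupling depend, read 10.59, 10.45, 10.52, 10.09, 10.61 and 10.48 in log2 intensity with vehicle (lowest 10.09, median 10.50, highest 10.61). With topotecan it read 8.72, 8.93, 8.97, 9.24, 9.11 and 8.55 (lowest 8.55, median 8.95, highest 9.24). Every treated array lay below every vehicle array, and the gap between the groups was wider than the range within either. The change was -1.54 ± 0.12 (SE) on the log2 scale, with an adjusted p of 3.59e-07 by limma. Gabbr1, the GABA-binding subunit, ran from 10.41 to 10.90 with vehicle (median 10.77) and from 10.45 to 10.86 with topotecan (median 10.76). Its groups lay on top of each other, with a change of -0.02 ± 0.09, a 95% interval of -0.23 to 0.18 and an adjusted p of 0.885 by limma. The interval leaves room for changes of that size in either direction and not for one the size of that in Gabbr2. Within each array, the log2 value of Gabbr2 minus that of Gabbr1 was between -0.41 and -0.11 with vehicle and between -1.90 and -1.62 with topotecan. This pair was chosen with the results known, so it is given with no test, and since the probe sets differ only its shift of -1.52 between groups can be read.

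Kcnj3 encodes GIRK1, the subunit that pairs with GIRK2 or GIRK3 in most neuronal channels. Its lead probe set read 9.00, 8.82, 8.89, 8.31, 8.73 and 9.18 with vehicle (median 8.86) and 7.74, 7.77, 7.75, 8.02, 7.96 and 7.47 with topotecan (median 7.76). The groups did not overlap, and the lowest vehicle array was again replicate 4, as for Gabbr2. The change was -1.04 ± 0.13 (limma adjusted p 4.58e-05). A second, much dimmer Kcnj3 probe set ran from 5.21 to 5.61 with vehicle and from 5.00 to 5.49 with topotecan, a change of -0.11 ± 0.09 (limma adjusted p 0.392). The 2 probe sets of this gene therefore disagree, and the mean of both gave -0.58. Kcnj6, which encodes GIRK2, the subunit able to form channels by itself, read 6.77, 6.65, 6.43, 6.09, 6.58 and 6.59 with vehicle (median 6.59). With topotecan it read 6.04, 5.83, 5.53, 6.18, 6.20 and 5.74 (median 5.93). These groups touched, because vehicle replicate 4 lay below topotecan replicates 4 and 5. The change was -0.60 ± 0.13 (limma adjusted p 0.00395), and it lost its call (adjusted p 0.0911) where all groups of the later arrays shared 1 fit. Kcnj9, which encodes GIRK3, ran from 5.28 to 6.04 with vehicle (median 5.74) and from 5.14 to 5.82 with topotecan (median 5.49), with broad overlap. Its change of -0.17 ± 0.13 had a 95% interval of -0.45 to 0.11 and a limma adjusted p of 0.353.

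**Figure D1:**
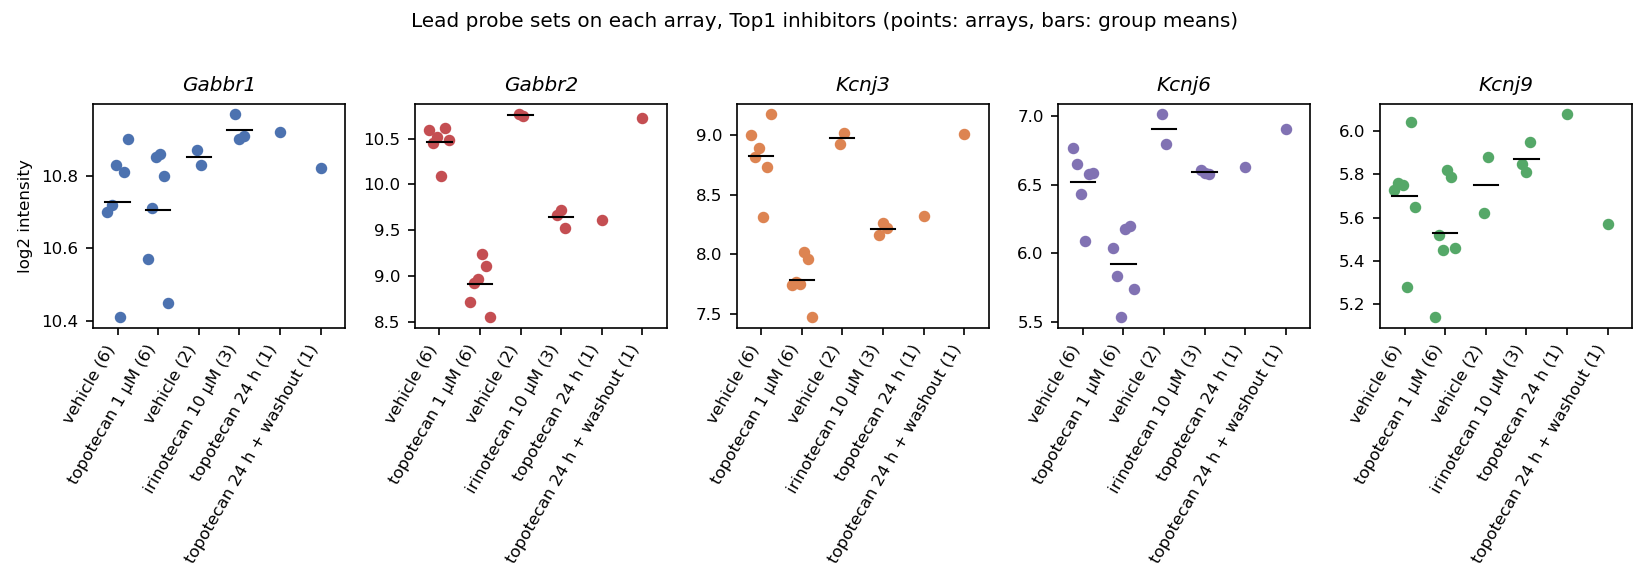
Log2 intensity of the lead probe set of each gene on every array of the 1 µM topotecan, irinotecan, 24 h topotecan and washout groups, with their vehicles; points are arrays, bars group means, and the vertical scale differs between panels. Gabbr2 and Kcnj3 lie below their vehicles with 1 µM topotecan, irinotecan and 24 h topotecan, and the washout array of each is level with its vehicle (Gabbr2 10.72 against a vehicle mean of 10.75).

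Among the 49 other genes of the pathway with a lead probe set on the later arrays, 27 fell and 4 rose with 1 µM topotecan. Their median change was -0.35, against 0.04 over all lead probe sets. The widest changes were in Rgs7 (-1.78 ± 0.11), Rgs8 (1.5 ± 0.11), Rgs6 (-1.41 ± 0.16), Adcy2 (-1.25 ± 0.11) and Grm2 (-1.18 ± 0.19), all called by limma. Rgs6, Rgs7 and Rgs8 encode proteins that shorten G protein signals, Adcy2 an adenylyl cyclase that G proteins regulate, and Grm2 a glutamate receptor that also acts through Gi and Go. By role, 4 of 5 RGS genes and anchors fell and 1 rose, and 6 of 6 effectors (calcium channel and adenylyl cyclase genes) fell. Of the G protein subunits, 2 of 5 alpha genes fell and 1 rose, and 4 of 8 beta and gamma genes fell. Lower calls were also made for 4 of 5 genes of GABA supply, 2 of 3 binders of the sushi domains of the Gabbr1 product, 1 of 2 trafficking genes and 3 of 10 other receptors that open GIRK channels. Of the auxiliary KCTD subunits of the receptor 1 of 4 fell and 1 rose, and Kcnj5, the remaining GIRK subunit gene, rose by 0.24.

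Genes with long spans fell more often than shorter ones. Of 21 pathway genes over 100 kb, 18 fell and 0 rose with 1 µM topotecan (median -0.70), and of 28 up to 100 kb 9 fell and 4 rose (median -0.15). Over all lead probe sets, 1240 of 2337 genes over 100 kb fell and 131 rose (median -0.27), and 1468 of 19657 up to 100 kb fell and 3592 rose (median 0.06). The called members span 186 to 329 kb. In the class of 150 to 400 kb, 613 of 1053 lead probe sets fell, with a median of -0.34. Gabbr2, Kcnj3 and Kcnj6 (-0.60) each fell by more than that median. The class was not limited to probe sets above the dim limit, and it was not matched to these genes in level. Gabbr1 and Kcnj9 are under 40 kb, a class in which 956 of 16142 fell and 3118 rose, with a median of 0.07.

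Cell type markers moved in this comparison too. Of the neuronal markers 6 of 8 fell (median -0.32), and their summed intensity ran from 14000 to 17700 with vehicle and from 11500 to 14500 with topotecan. The low end for vehicle is replicate 4 alone (13970, the others 17220 to 17700), the array that was also lowest for all 5 members, and the 3 calls were kept when any 1 of the 12 arrays was left out. For inhibitory interneurons 4 of 8 fell, with sums of 3290 to 4770 against 1290 to 1940. Astrocyte markers fell in 6 of 9 cases and rose in 1, with sums of 3850 to 4280 against 2060 to 2360. Excitatory neuron markers had overlapping sums, 1170 (replicate 4, the others 1891 to 2115) to 2120 against 1310 to 2090, and 3 of 4 markers of proliferating cells fell (564 to 917 against 419 to 540). The part of these shifts in the changes of Gabbr2, Kcnj3 and Kcnj6 was not tested.

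With 10 µM irinotecan Gabbr2 fell 2.16-fold and Kcnj3 1.69-fold. These 2 of 5 lead probe sets compare with 5.05% of all lead probe sets called lower and 9.68% called in either direction by limma. Gabbr2 read 10.77 and 10.74 on the vehicle arrays and 9.67, 9.72 and 9.53 with irinotecan. The treated arrays were well apart from the vehicle arrays, with a change of -1.11 ± 0.09 (limma adjusted p 0.00121). Kcnj3 read 8.93 and 9.02 with vehicle and 8.16, 8.26 and 8.22 with irinotecan, a change of -0.76 ± 0.09 (limma adjusted p 0.00382). The second Kcnj3 probe set went the other way without being called, from 4.97 and 4.86 to 5.10, 5.31 and 5.20 (0.29 ± 0.10, limma adjusted p 0.138). With the mean of both probe sets the Kcnj3 change was -0.24 and lost its call (limma adjusted p 0.156). When all later groups shared 1 fit, neither Gabbr2 (adjusted p 0.282) nor Kcnj3 (0.58) was called by limma.

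Kcnj6 read 7.02 and 6.80 with vehicle and 6.61, 6.59 and 6.58 with irinotecan. All 3 treated arrays were lower, but the change of -0.32 ± 0.10 was not called (limma adjusted p 0.102), though it was under 4 alternatives, such as with dim probe sets left out (limma adjusted p 0.038). Gabbr1 read 10.87 and 10.83 against 10.97, 10.90 and 10.91, slightly higher on every treated array (0.08 ± 0.08, interval -0.13 to 0.28). Kcnj9 read 5.62 and 5.88 against 5.85, 5.81 and 5.95, within reach of its vehicles (0.12 ± 0.11, interval -0.15 to 0.38). Gabbr2 minus Gabbr1 within an array was -0.11 to -0.09 with vehicle and -1.37 to -1.19 with irinotecan. Of the other pathway genes 19 of 49 fell and 2 rose (median -0.20), 12 of 21 over 100 kb falling. The widest changes were in Rgs6 (-1.59 ± 0.10), Rgs7 (-1.48 ± 0.09), Cacna1a (-1.08 ± 0.09), which encodes a presynaptic calcium channel, Adcy2 (-1.05 ± 0.10) and Drd2 (-1.0 ± 0.10), a dopamine receptor that acts through Gi and Go. Markers of neurons gave sums of 16900 to 17900 with vehicle and 16000 to 16300 with irinotecan, those of interneurons 2930 to 3140 and 1540 to 1960, and those of astrocytes 2130 to 2580 and 1980 to 2130. Their part in the result was not tested. Topotecan and irinotecan were given at 1 and 10 µM in separate experiments, so their changes stand side by side without a comparison.

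The array with topotecan for 24 h and that with washout after 24 h share the 2 vehicle arrays of irinotecan, have no replicate, and take no test. After 24 h Gabbr2 stood at 9.61, against 10.77 and 10.74, a difference of -1.14 from the vehicle mean. It was the only member to differ more than 2-fold, a difference seen as lower values in 1.54% of lead probe sets. Kcnj3 stood at 8.32 (-0.65) and Kcnj6 at 6.63 (-0.29), both under their vehicles, while Gabbr1 at 10.92 (0.07) and Kcnj9 at 6.08 (0.33) were above theirs. After washout no member differed 2-fold, which 0.0541% of lead probe sets did downward. Gabbr2 then read 10.72 (-0.03), Kcnj3 9.01 (0.04), Kcnj6 6.91 (-0.01), Gabbr1 10.82 (-0.03) and Kcnj9 5.57 (-0.18). Kcnj3 and Kcnj6 fell inside the range of the vehicle pair, and the other members lay just below it. Of the 49 pathway genes 4 were more than 2-fold lower after 24 h (Rgs7, Rgs6, Adcy2 and Cacna1a, by -1.58, -1.55, -1.21 and -1.03) and 0 after washout.

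**Figure D2:**
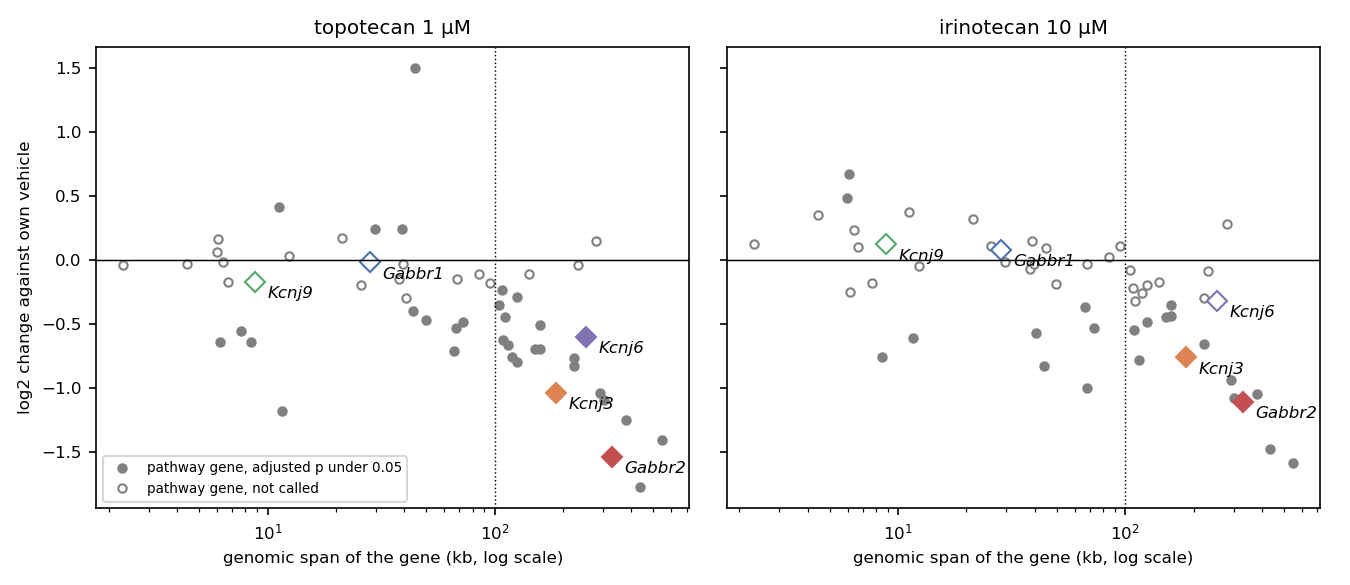
Log2 change of pathway genes (circles) and of the 5 receptor and channel genes (diamonds) against genomic span on a log scale, for 1 µM topotecan and 10 µM irinotecan; filled symbols have an adjusted p under 0.05 and the dotted line marks 100 kb. Right of that line, 18 of 21 pathway genes fell with topotecan and 12 of 21 with irinotecan, and Gabbr2 (-1.54 and -1.11) and Kcnj3 (-1.04 and -0.76) lie among them.

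In the dose series no member had a slope that passed the test. Limma called 0 of 5 over the rank of the dose, with 1.36% of lead probe sets called, and 1 of 5 (Gabbr2) had an unadjusted p under 0.05. The share of all lead probe sets under that level was not counted. Gabbr2 read 11.36, 11.42 and 11.56 with vehicle, 11.56 at 3 nM, 11.50 at 30 nM, 11.38 at 150 nM, 11.34 and 11.35 at 300 nM, 11.21 at 500 nM and 10.56 at 1000 nM. From 3 nM upward each dose was at or below the one before, and the step to 1000 nM was the widest (slope -0.10 ± 0.03 per dose rank, limma adjusted p 0.175). Kcnj3 read 8.65, 8.77 and 9.60 with vehicle, then 9.53, 9.43, 9.27, 9.22 and 9.11 (both 300 nM), 9.13 and 8.19. Its 3 vehicle arrays were widely spread, the 1000 nM array lay below all of them and every other dose between them, and its slope was -0.07 ± 0.06 (limma adjusted p 0.68).

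Vehicles 1 and 2 and the 1000 nM array stood apart from the other 7 arrays over all probe sets: array pairs correlated at 0.9877 to 0.992 among the 7 and at 0.9712 to 0.9812 between the sets. Without those 3 arrays the Kcnj3 slope was -0.10 and called (limma adjusted p 0.0182) and that of Gabbr2 -0.07 (0.0562), and without 1000 nM alone the Kcnj3 slope was 0.02. Gabbr1 ran from 11.24 to 11.57 with vehicle and from 11.42 to 11.68 with drug, and Kcnj6 from 6.73 to 7.28 and from 6.79 to 7.37. Both were lowest on the arrays that stood apart. Kcnj9 ran from 6.47 to 6.72 with vehicle and from 6.40 at 1000 nM to 6.83 at 300 nM, with no order over the doses (slope 0.00 ± 0.02). At 1000 nM, Gabbr2 was 0.89 below and Kcnj3 0.82 below the vehicle mean on the log2 scale, and no member differed 2-fold, against 1.48% of lead probe sets that were lower by that much. That mean joins unlike vehicles: Kcnj3 read 8.19 at 1000 nM against 8.65 and 8.77 on vehicles 1 and 2 and 9.60 on vehicle 3. Astrocyte markers summed to 16300, 16840 and 4510 on vehicles 1, 2 and 3 and to 8743 at 1000 nM. Interneuron markers summed to 6454, 6360, 12220 and 5289, and those of proliferating cells to 2688, 2897, 267.6 and 1072. Their part in the values was not tested. Of 50 pathway genes 1 fell with dose (App, -0.07 per rank) and 1 rose (Rgs8, 0.16 per rank).

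**Figure D3:**
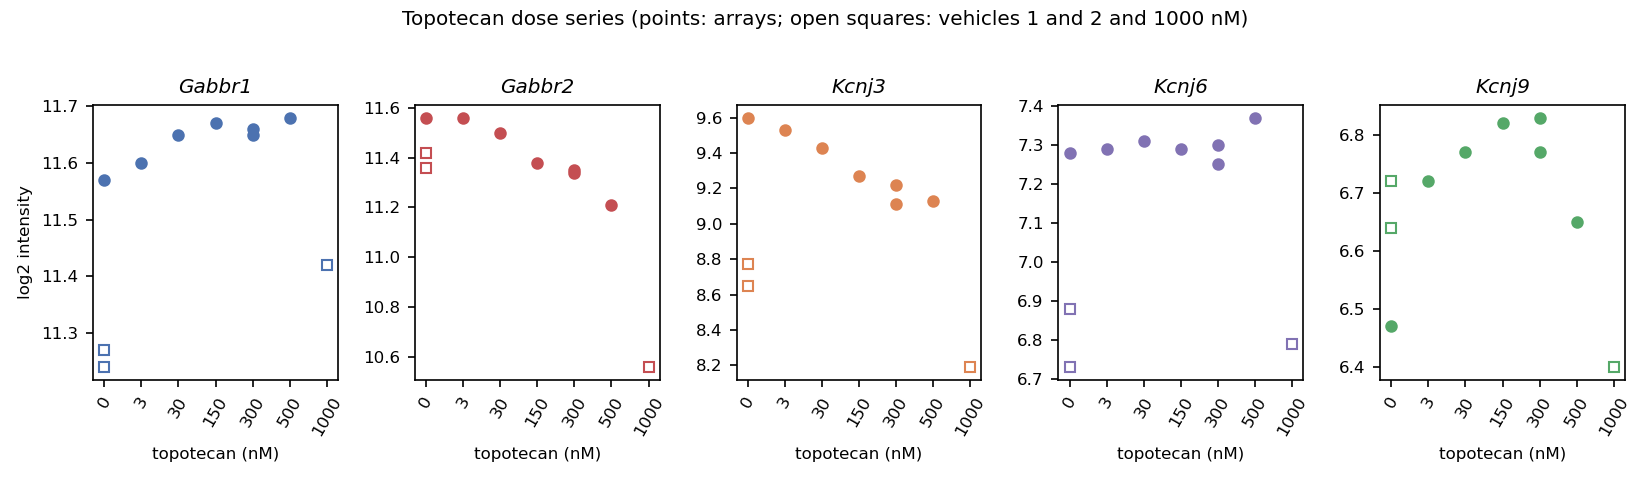
Log2 intensity of each gene on the 10 arrays of the topotecan dose series, with doses in nM in rank order and open squares for vehicles 1 and 2 and 1000 nM, which stood apart from the other 7 arrays. Among the filled points Gabbr2 declines from 11.56 at 3 nM to 11.21 at 500 nM and Kcnj3 from 9.53 to 9.13, while Gabbr1 and Kcnj6 do not decline.

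On the 3' arrays, 300 nM topotecan gave no called member, 0 of 4 lead probe sets and 0 of 17 in all, with 2.91% of lead probe sets and 2.64% of all probe sets called by limma. An unadjusted p under 0.05, which was not counted over all lead probe sets, was reached by 1 of 4, Kcnj3. Its lead probe set read 8.90, 9.94 and 10.08 with vehicle and 8.78, 9.08 and 8.49 with topotecan. Vehicle 1 lay inside the treated range and the other vehicle arrays above it, and the change was -0.85 ± 0.31 (limma adjusted p 0.232). Without vehicle 1 the change was -1.23 and was called (limma adjusted p 0.0318). The next brightest Kcnj3 probe set read 7.48, 8.32 and 8.48 with vehicle against 7.16, 7.44 and 6.32, without overlap (-1.12 ± 0.35, limma adjusted p 0.164). The lead Gabbr1 probe set read 12.54, 12.87 and 12.85 against 12.89, 13 and 12.89 with topotecan, the treated arrays just above the vehicles. Its change was 0.18 ± 0.12 (interval -0.11 to 0.46). The next brightest Gabbr1 probe set went the other way, with overlap (-0.18 ± 0.17, limma adjusted p 0.671). The others changed by 0.14 ± 0.15 and, below the dim limit, by 0.02 ± 0.10. Kcnj9 changed by 0.11 ± 0.13, and the lead probe set of Kcnj6, which is below the dim limit, by 0.06 ± 0.15.

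With 3 µM ICRF-193 the 4 lead probe sets stayed within 0.06 of their vehicles on the log2 scale. Limma called 0 of 4, with 5.66% of lead probe sets called. At an unadjusted p under 0.05 there were 0 of 4, a share not counted over all lead probe sets. Over all 17 member probe sets 0 were called, with 4.98% of all probe sets. Gabbr1 read 12.14, 12.11 and 12.12 with vehicle and 12.10, 12.04 and 12.05 with drug (-0.06 ± 0.04, interval -0.16 to 0.05), slightly lower on every treated array. Kcnj3 read 9.50, 9.47 and 9.22 against 9.43, 9.43 and 9.40 (0.02 ± 0.08, interval -0.16 to 0.21). Kcnj3 overlapped its vehicles, and both intervals are narrow. Kcnj6 changed by 0.04 ± 0.06 and Kcnj9 by -0.04 ± 0.07. The difference between the 2 inhibitors, each against its own vehicle, was called for 0 of 4 (1.69% of lead probe sets), and for Kcnj3 it was -0.88 ± 0.36 (limma adjusted p 0.324). Without topotecan vehicle 1 that difference was -1.25 and called (limma adjusted p 0.00958). The drugs were tested in separate experiments, so drug and experiment cannot be told apart.

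On these arrays 3 of 48 pathway genes fell and 0 rose with 300 nM topotecan, beside 1.94% and 0.973% of all lead probe sets. They were Rgs6 (-1.5 ± 0.24), Rgs7 (-1.28 ± 0.18) and Gnao1 (-0.82 ± 0.10), which encodes the alpha subunit of Go. With ICRF-193 3 fell and 4 rose, beside 3.03% and 2.63% of all lead probe sets. The widest were Htr1a (0.77 ± 0.04), a serotonin receptor that opens GIRK channels, Rgs8 (0.76 ± 0.07), Rgs6 (-0.54 ± 0.05), Rgs4 (0.41 ± 0.07) and Rgs7 (-0.33 ± 0.07). The difference between the inhibitors was itself called for Gnao1 (-0.77 ± 0.10) and Rgs7 (-0.96 ± 0.20). Astrocyte markers fell in 4 of 9 cases with each drug.

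**Figure D4:**
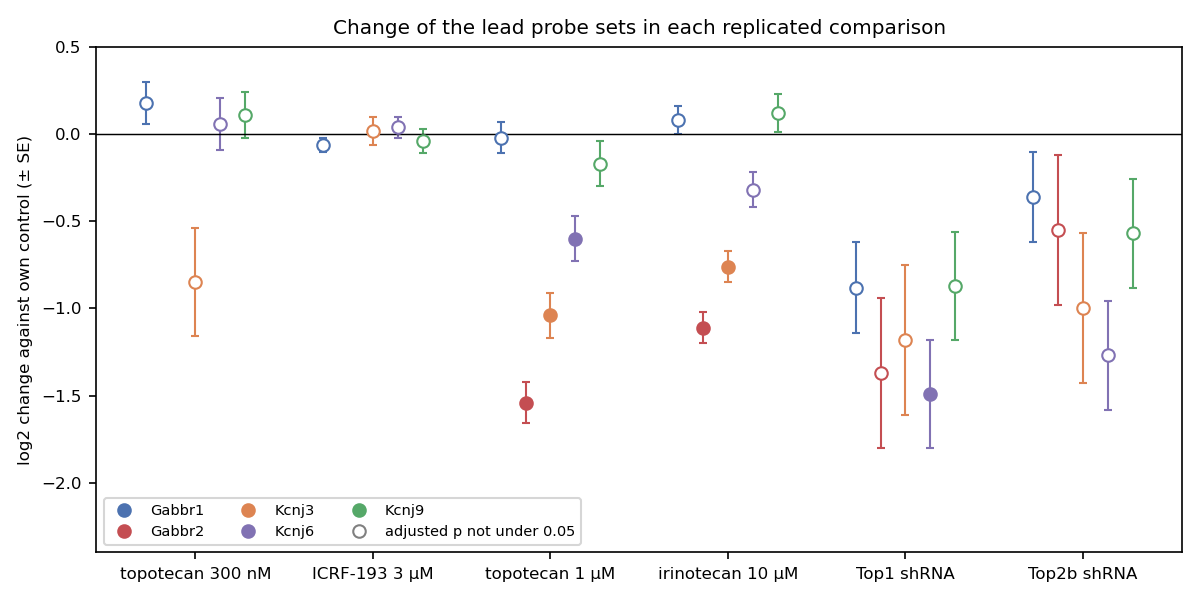
Log2 change ± SE of the lead probe set of each gene in the 6 comparisons with replicates, each against its own control; filled circles have a limma adjusted p under 0.05, and Gabbr2 has no single-symbol probe set on the 3' arrays. Under 1 µM topotecan and irinotecan the genes separate, from Gabbr2 (-1.54 and -1.11) to Gabbr1 (-0.02 and 0.08), whereas with both hairpins all 5 lie below 0 with wide errors.

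In the knockdown arrays the targeted genes were checked first. Top1 read 7.62, 8.39 and 8.29 with the Top1 hairpin (replicates 1, 2 and 3) and 8.98, 8.46 and 8.55 with the control hairpin, without overlap. The fall was wide in replicate 1 and slight in the others, and the change of -0.57 ± 0.28 was not called (limma adjusted p 0.41). Top2b read 8.62, 6.87 and 6.80 with its hairpin and 9.30, 8.39 and 8.17 with the control. Replicate 1 lay within the control range, although below control replicate 1 of its own array set, and the change of -1.19 ± 0.49 was not called (limma adjusted p 0.463). Replicate 1 of every knockdown group belongs to another array set by mean intensity than replicates 2 and 3.

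With the Top1 hairpin Kcnj6 alone was called, 1 of 5, with 1.01% of lead probe sets called lower and 2.62% in either direction. All 5 members read lower than with the control hairpin on every array and had an unadjusted limma p under 0.05. How many of all lead probe sets did so was not counted, so neither count sets the members apart. Kcnj6 read 7.41, 6.91 and 6.80 with the control hairpin and 5.91, 5.03 and 5.69 with the Top1 hairpin, a 2.82-fold lower level (-1.49 ± 0.31, limma adjusted p 0.0394). The call was lost, at limma adjusted p of 0.071 to 0.159, without any of 7 arrays: control 1, 2 or 3, Top1 hairpin 2 or 3, or Top2b hairpin 2 or 3, which share the fit. Gabbr2 read 10.43, 10.53 and 10.53 against 9.64, 8.14 and 9.60, with replicate 2 far below the others (-1.37 ± 0.43, limma adjusted p 0.137). Gabbr1 read 10.34, 10.70 and 10.76 against 9.96, 9.59 and 9.61 (-0.88 ± 0.26, limma adjusted p 0.112). This differs from the topotecan and irinotecan experiments, where Gabbr1 changed by -0.02 and 0.08; whether the responses differ was not tested. Kcnj3 read 9.90, 8.53 and 8.60 against 8.15, 7.15 and 8.19 (-1.18 ± 0.43, limma adjusted p 0.199), its control replicate 1 standing above the rest. Kcnj9 read 5.71, 5.71 and 5.56 against 5.38, 4.16 and 4.84 (-0.87 ± 0.31, limma adjusted p 0.198). Within array sets, the Kcnj9 difference was -0.34 in replicate 1 and -1.13 over replicates 2 and 3, that of Gabbr1 -0.38 and -1.13, that of Gabbr2 -0.79 and -1.66, that of Kcnj3 -1.76 and -0.89 and that of Kcnj6 -1.50 and -1.49. Without Top1 hairpin replicate 2 the Kcnj9 change was -0.55 and that of Gabbr2 -0.88, and without control replicate 1 the Kcnj3 change was -0.74. Kcnj6 alone was as large in both array sets. With the array set as a block, an alternative chosen after seeing the data, 4 of 5 were called by limma: Kcnj6, Gabbr1 (adjusted p 0.0162), Kcnj9 (0.0336) and Gabbr2 (0.0452). The shares of lead probe sets given above belong to the main fit and not to this one, so this count is not set against them.

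With the Top2b hairpin limma called 0 of 5 members and 0% of all lead probe sets, and 2 of 5 members (Kcnj3 and Kcnj6) had an unadjusted p under 0.05. How many of all lead probe sets reached that level was not counted. Kcnj6 read 5.43, 5.88 and 5.98, below all 3 control arrays (-1.27 ± 0.31, limma adjusted p 0.138). With the replicate number as a block, Kcnj6 was called (limma adjusted p 0.0347). A pairing by number is not shown for this hairpin: replicate 2 correlated best with a control array of another number. Replicate 1 also belongs to another array set, which the replicate number cannot be told apart from. Kcnj3 read 7.68, 8.09 and 8.26 (-1.0 ± 0.43), Gabbr2 9.29, 10.22 and 10.34 (-0.55 ± 0.43), Kcnj9 5.21, 5.17 and 4.88 (-0.57 ± 0.31) and Gabbr1 9.94, 10.26 and 10.51 (-0.36 ± 0.26). Gabbr1 overlapped its controls and the other members did not, and the share of all lead probe sets without overlap was not counted. Replicate 1 was the lowest of its group for Gabbr1, Gabbr2, Kcnj3 and Kcnj6. Within array sets, the Kcnj3 difference was -2.22 in replicate 1 and -0.39 over replicates 2 and 3, that of Gabbr2 -1.14 and -0.25, and that of Kcnj6 -1.97 and -0.92. Without Top2b hairpin replicate 1 the Gabbr2 change was -0.22 and that of Gabbr1 -0.21, and without control replicate 1 the Kcnj3 change was -0.55. The direct test of the Top1 against the Top2b hairpin, which share their controls, called 0 of 5 members and 0% of lead probe sets. At an unadjusted p under 0.05 there were 0 of 5, and the share of all lead probe sets there was not counted. The differences ran from -0.82 ± 0.43 for Gabbr2 (interval -1.79 to 0.14) to -0.18 ± 0.43 for Kcnj3 (interval -1.14 to 0.77). All 5 intervals span 0, which does not show that the hairpins act alike.

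**Figure D5:**
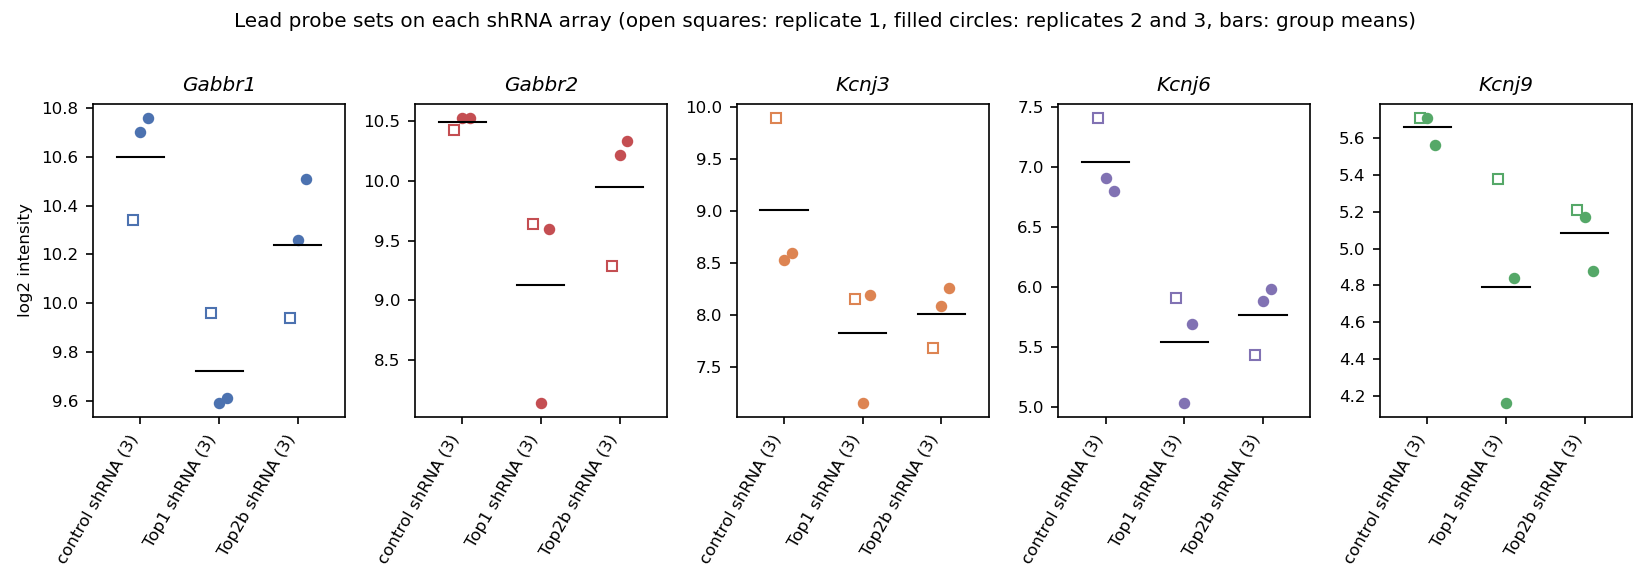
Log2 intensity of each gene on the 9 knockdown arrays, with open squares for replicate 1, which belongs to another array set, filled circles for replicates 2 and 3 and bars for group means. For Kcnj6 the Top1 hairpin arrays run from 5.03 to 5.91 and the control arrays from 6.80 to 7.41. Gabbr1 overlaps its controls with the Top2b hairpin.

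Markers of cell types moved alongside in the knockdown arrays. The 8 neuronal markers summed to 16210 to 16750 with the control hairpin, 8483 to 11940 with the Top1 hairpin and 9892 to 14400 with the Top2b hairpin, and 0 of 8 were called with either. Their median changes were -0.83 and -0.47. Excitatory neuron markers had medians of -1.27 (2 of 6 called lower) and -0.97 (0 of 6), and inhibitory interneuron markers -1.22 and -0.74 (0 of 8 called each). Markers of proliferating cells had medians of 1.74 and 1.02 (0 of 4 called each), those of fibroblasts and vessels 1.36 (2 of 8 called higher) and 0.66 (0 of 8), and those of astrocytes 0.98 and 0.88 (0 of 9 called each). All 6 hairpin arrays had lower neuronal sums than all 3 control arrays. The part of the markers' shifts in these changes was not tested. Among pathway genes 5 of 49 fell with the Top1 hairpin and 0 rose (median -0.95, against 0.03 over all lead probe sets): Kctd16 (-2.16 ± 0.31), an auxiliary subunit of the receptor, Grm2 (-2.15 ± 0.39), Gnb4 (-1.72 ± 0.28), a G protein beta subunit, Chrm4 (-1.48 ± 0.28), a muscarinic receptor, and Drd2 (-1.43 ± 0.28). By span, 1 of 21 over 100 kb and 4 of 28 up to 100 kb fell, beside 67 of 2337 and 155 of 19657 over all lead probe sets. With the Top2b hairpin 0 of 49 were called (median -0.47).

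DRB and the oxidants had single arrays and take no test. With 100 µM DRB, Kcnj6 read 6.18 against 7.16 in its vehicle (-0.97), Gabbr1 10.57 against 11.07 (-0.50), Gabbr2 10.85 against 11.24 (-0.38), Kcnj9 5.71 against 6.06 (-0.35) and Kcnj3 9.74 against 9.48 (0.26). None of the 5 differed 2-fold, while 11.6% of lead probe sets were 2-fold lower and 10.7% 2-fold higher. The Kcnj6 value fell to -0.61 after a new quantile normalization of the pair. Astrocyte markers summed to 1241 with DRB and 4591 with its vehicle, and neuronal markers to 22060 and 21930. Of 49 pathway genes 16 were 2-fold lower and 2 higher with DRB, led by Slc6a11 (-3.08), a GABA transporter, Oprl1 (-2.66), an opioid-like receptor, Drd2 (-2.23), Kctd16 (-1.99) and Gnb5 (-1.75).

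For H2O2 and paraquat the result depends on which vehicle array is taken. Vehicle 1 read 9.38 for Gabbr2, 9.86 for Gabbr1, 8.59 for Kcnj3, 5.68 for Kcnj6 and 4.68 for Kcnj9, and vehicle 2 read 11.26, 11.09, 9.54, 7.33 and 6.07. Vehicle 1 was the lower for every member, and its neuronal markers summed to 12180 against 23200 in vehicle 2, with markers of proliferating cells at 1406 against 468.4. With H2O2, Gabbr2 at 10.87, Gabbr1 at 10.71, Kcnj3 at 9.03, Kcnj6 at 6.66 and Kcnj9 at 5.98 lay between the vehicles. With paraquat, Gabbr2 at 11.14, Gabbr1 at 11.05, Kcnj3 at 9.04 and Kcnj6 at 6.65 did too, and Kcnj9 at 6.62 lay above both. Its difference of 1.24 from the vehicle mean was 2-fold, as for 2.29% of lead probe sets upward, and it was 0.55 against vehicle 2 and 1.94 against vehicle 1.

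For each member, the 3 genes whose changes over the 9 comparisons on the later arrays came nearest were listed, by the root mean square difference on the log2 scale among 11089 genes (11090 for Kcnj9) of at least median level. Several of these comparisons share controls, so the measure is a description with no test. Gabbr2 was nearest to Anks1b (0.12), Camk4 (0.14) and Nrcam (0.20). Their spans of 1100, 261 and 276 kb are long, like its own. Kcnj3 was nearest to Mef2c (0.17), Sh3rf3 (0.21) and Jph1 (0.23), with spans of 163, 327 and 156 kb. Kcnj6 was nearest to Neurl1b (0.19), St8sia1 (0.20) and Plcxd3 (0.21), with spans of 31.5, 168 and 200 kb, the first of them far shorter than its own. Gabbr1 was nearest to Elavl3 (0.08), Acvr1b (0.10) and Maneal (0.10), with spans of 37.1, 39.6 and 25.7 kb, and Kcnj9 to Slc4a8 (0.11), A830010M20Rik (0.13) and C1qtnf4 (0.13). Of these last, Slc4a8 spans 62.2 kb and C1qtnf4 7.74 kb, and A830010M20Rik had no span here. No gene is near 2 of the members in these lists.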

How the data were processed

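The deposited values are intensities per probe set, made by the authors with RMA in Affymetrix Expression Console, per the submitters' processing notes. The versions are not given in the sources used here. The deposited intensities are linear, so log2 was taken. Whether sets of arrays were normalized separately is not given in the sources used here; their mean intensities differ, and each treatment was compared only with the control its title names. Probe sets were named through the platform annotation, with symbols updated by gene ID, and those with several symbols or none were left out.

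Tests were made with limma 3.58.1 in R 4.3.3 (lmFit and eBayes on group means, 2-sided), with p-values adjusted by Benjamini-Hochberg over all single-symbol probe sets of the array type and a threshold of 0.05. The dose series was fitted as a slope over the rank of the dose. Single arrays were compared with the mean of their own vehicles, with no test. Counts at an unadjusted p under 0.05, and of members without overlap, were made for the members alone. The fits were tested on simulated data. The members and all gene and marker lists were chosen with earlier results of these data known. The text names every member and, in each comparison, up to 5 pathway genes with the widest change among those past the threshold, 3 nearest genes a member, and Top1 and Top2b. Kcnj5 and the cell type markers below the dim limit were named after their values were seen. No 2 arrays held identical values.

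Same-numbered arrays deviated together (every correlation over 0.1) for ICRF-193 (0.32, 0.18 and 0.29), the Top2b hairpin (0.47, 0.40 and 0.36) and the contrast of the hairpins (0.45, 0.21 and 0.33), and not in the other comparisons. Yet replicate 2 of the Top2b hairpin, and replicate 3 in the contrast of the hairpins, correlated best with an array of another number. In the knockdown arrays the array sets may also raise these correlations, so they do not show a pairing by number. Alternatives changed the probe sets tested, the merging of probe sets, the log offset of 16, the normalization, the variance model, the groups in a fit, the replicate block and the arrays left out.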

Additional observations from a re-analysis of the deposited data

Results flagged for a closer look

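The Gabbr2 probe set read 10.09 on vehicle replicate 4 of the 1 µM topotecan experiment, while the other 5 vehicle arrays lay between 10.45 and 10.61. Its gap to the nearest array was 0.70 of the range of the group, which is above the critical value of Dixon's test for 6 samples at the 95% level. It was marked in 1 of 12 checks, made for the 6 member probe sets in the groups of 4 or more arrays (1 µM topotecan and its vehicle). Chance alone marks about 1 in 20 separate checks, and these checks shared their arrays. Vehicle replicate 4 was also the lowest vehicle array for Gabbr1, Kcnj3, Kcnj6 and Kcnj9. Its neuronal markers summed to 13970 against 17220 to 17700 on the other 5 vehicles, its excitatory markers to 1168 against 1891 to 2115, and its markers of proliferating cells to 917.1 against 564.2 to 717.6. Leaving out each array in turn, the Gabbr2 change stayed between -1.61 and -1.46.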

How the results depend on the processing

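With 1 µM topotecan, Gabbr2 and Kcnj3 kept their call under all 20 alternatives (-1.61 to -1.46 and -1.14 to -0.58), and 2 to 3 of 5 members were called. With irinotecan the count of 2 became 1 with probe sets averaged and 0 with all groups in 1 fit, and 3 under 4 alternatives that added Kcnj6 (dim probe sets left out, 1 brightest probe set per gene, log2(value + 16) and an intensity trend; limma adjusted p 0.0343 to 0.0394). With 300 nM topotecan the count of 0 became 1 with all groups in 1 fit, and 0 to 1 on leaving out each array in turn, as for its difference from ICRF-193 (0 to 1). For the Top1 hairpin the count of 1 became 2 with dim probe sets left out, with the brightest probe set per gene, with log2(value + 16), with an intensity trend and with the replicate block, where Gabbr1 joined (limma adjusted p 0.029). It became 5 with all groups in 1 fit, 4 with replicates 2 and 3 only or with the array set as a block, and 0 to 1 on leaving out each array. For the Top2b hairpin the count of 0 became 1 with the brightest probe set per gene, the replicate block, replicates 2 and 3 only or the array set as a block, and 2 with all groups in 1 fit. The contrast of the hairpins went from 0 to 1 with replicates 2 and 3 only. The dose slope went from 0 to 1 called without 1000 nM and vehicles 1 and 2. The replicate block changed no other call, and no alternative reversed a called direction. The array set block and the slope without 1000 nM were chosen after seeing the data. Where a count moved, the cause was not tested. These counts stand without the share of all probe sets called under the same alternative, so they describe how stable the calls are and nothing particular to the members. Few arrays per group limit the precision, and 0 of 5 Kcnj6 probe sets on the 3' arrays were above the dim limit.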
